A study of Mus musculus with 14 samples.

Results

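Bulk RNA of mesenchymal stem cells (MSC) from mouse bone marrow was compared between mice that carried a Py230 tumour and tumour-free mice, gene by gene and with no restriction to known niche factors. The comparison used all 8 libraries that the sample titles assign to these groups, 4 per group, out of 14 samples in the series. Py230 is a breast cancer cell line that was established from a PyMT mouse, whose mammary gland expresses the polyoma middle T oncogene. Tumour-bearing and tumour-free are the only conditions the labels give for these libraries. The sources used here do not give the strain, sex and age of the mice, the site and age of the tumour, or the gates of the cell sort. No label says that each library came from its own animal, so the p-values given here reflect the spread among these 8 libraries only, and that spread may be technical. The series also holds 1 wild-type (WT) and 1 PyMT library of single marrow stromal cells, used here to place the bulk genes in cell clusters, and 4 libraries of blood progenitors, not analysed here. The study asked how marrow cells differ when a breast tumour grows at a distance.

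Marrow MSC surround the sinusoids, express the leptin receptor (LepR), and are the main local source of Cxcl12 and stem cell factor, which hold blood stem cells in the marrow. They are also precursors of marrow fat and bone. They secrete growth factors, matrix and proteases, and they receive signals from nerves, cytokines, steroid hormones and neighbouring cells, so their RNA covers many of the gene families described here.

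The libraries held 4301375 to 9811251 counted reads. They carried RNA typical of this cell type. In plain CPM, read counts scaled to a common library total, Cxcl12 lay between 8491 and 20789 in the 8 libraries. Lepr lay between 2756 and 3814 and Pdgfra between 637 and 992, while the endothelial gene Pecam1 lay between 10.7 and 19.4. Osteolineage markers were abundant too, with Ibsp between 654 and 2704 CPM. Col1a1 ranged from 407 CPM in Py230 replicate 1 to 9472 CPM in Py230 replicate 3. The sum of 10 osteolineage markers was at 5361 ± 1491 CPM in tumour-free and 6427 ± 4327 CPM in Py230 libraries (SD, n = 4 each). The widest axis of variation, the first principal component with 44.5% of the variance, did not follow the groups but the number of genes detected at 4301375 reads per library, which was 23118, 33270, 30914 and 29797 in the tumour-free libraries and 34868, 28075, 19546 and 36678 in the Py230 libraries. The second component, with 17.8%, separated the groups, from −39.8 to −17.3 in tumour-free and from 10.5 to 42.5 in Py230 libraries. Without the library of fewest genes in each group, tumour-free replicate 1 and Py230 replicate 3, 189 genes were higher and 303 lower.

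Of 16317 genes tested, 324 were higher and 447 lower with a Py230 tumour (edgeR's quasi-likelihood test, Benjamini-Hochberg adjusted p under 0.05). The called genes were 4.73% of the tested genes, 1.99% higher and 2.74% lower, and every share given for a gene list is to be read against these values. Most changes were moderate, with a median of 1.71-fold among higher and 1.68-fold among lower genes. Only 99 higher and 130 lower genes differed at least 2-fold, and 14 and 15 at least 4-fold. The groups had separate CPM ranges in 1790 genes (11% of those tested), 743 of them called. When each library was left out in turn, 130 higher and 204 lower genes kept their call in all 8 fits. A gene named here kept its call in all 8 unless the text says otherwise; brackets after a gene whose call was lost then give its log2 change with all libraries and its highest adjusted p, with the library left out. In bulk RNA, fewer cells of a type and less RNA per cell cannot be told apart. Called genes were more abundant than tested genes at large, with a median of 49.6 normalised CPM (scaled further by TMM factors, as are all CPM of single genes below) for higher and 57.3 for lower genes against 12.8 for all, as the plot of change against level shows.

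**Figure D1:**
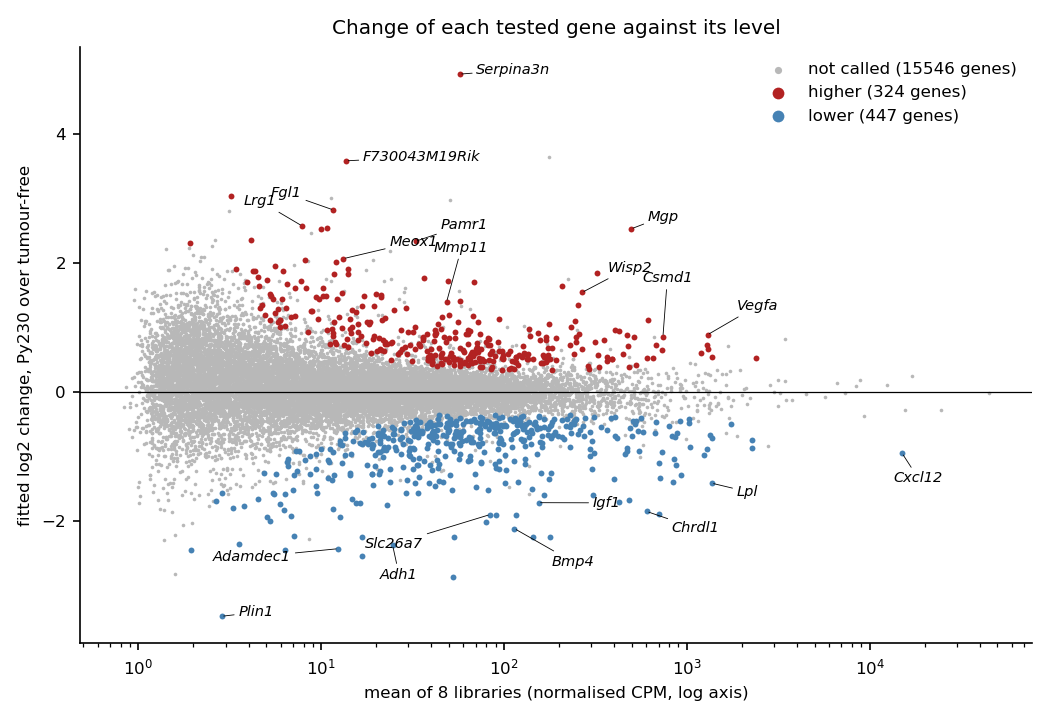
Each point is 1 of the 16317 tested genes: the mean of the 8 libraries in normalised CPM on a log axis (x) and the fitted log2 change, Py230 over tumour-free (y), with called genes in red (higher, 324) and blue (lower, 447) and the others in grey. Calls reach from genes of a few CPM, such as Plin1, to Cxcl12; Serpina3n lies highest, at a log2 change of 4.93.

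The genes that rose most reliably code for secreted matrix modifiers, a CCN protein, an integrin and 2 parts of G protein signalling. Mmp11, a matrix metalloprotease (stromelysin 3), was at 27.8, 28.0, 23.7 and 27.3 normalised CPM in the 4 tumour-free libraries and at 80.2, 70.9, 68.0 and 62.1 in the 4 Py230 libraries. The groups lay far apart, and Mmp11 rose 2.63-fold (log2 change 1.4, SE 0.11, adjusted p = 4.29e-05). Wisp2, a CCN family protein that modulates Wnt signals in mesenchymal cells, was at 142, 119, 156 and 129 CPM without and 496, 421, 359 and 318 CPM with a tumour, a 2.92-fold rise (log2 change 1.54, SE 0.14, adjusted p = 6.79e-05). Itgb5, the beta subunit of a vitronectin receptor, had little spread within groups, with 100.2, 93.5, 92.1 and 83.7 CPM against 185, 178, 178 and 188 CPM (log2 change 0.98, SE 0.09, adjusted p = 6.79e-05). In mouse build GRCm38 these protein-coding genes lie at chr10:75923222-75936496 (Mmp11), chr2:163820861-163833146 (Wisp2) and chr16:33829665-33949338 (Itgb5), and their counts are over whole genes.

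Rgs20, which speeds the shutdown of inhibitory G proteins, was at 12.5, 10.7, 11.5 and 10.4 CPM in tumour-free and 34.1, 31.2, 32.4 and 28.0 CPM in Py230 libraries (log2 change 1.48, SE 0.14, adjusted p = 7.61e-05). Adra2a, the alpha-2A adrenergic receptor, which couples to those G proteins, went from 12.5, 8.23, 10.9 and 9.63 CPM to 25.6, 35.3, 27.9 and 30.3 CPM (log2 change 1.53, SE 0.17, adjusted p = 0.000201). Neither gene had overlapping groups. The corepressor gene Cbfa2t3, the proteoglycan gene Dcn (decorin) and the clock-linked repressor gene Bhlhe40 rose 2.27-fold, 2.15-fold and 2.0-fold. Other genes among the 25 of smallest p were those of the tyrosine phosphatase Ptpn3 (2.23-fold), the collagen-binding protein Aebp1 (1.86-fold), the oncostatin M receptor Osmr (1.93-fold), the ubiquitin ligases Trim69 (2.41-fold) and Mylip (1.76-fold), and the ribosomal RNA methyltransferase Nop2 (1.78-fold).

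The largest rises were in genes of low level without a tumour. Pamr1, which codes for a secreted protein linked to muscle regeneration, was at 7.71, 10.7, 10.5 and 14.2 CPM in tumour-free libraries and 79.6, 53, 35.4 and 51.4 CPM with a tumour (log2 change 2.34, SE 0.25, adjusted p = 0.000328). Fgl1, a fibrinogen-like secreted ligand of the T cell receptor LAG3, was at 2.96, 1.65, 0.999 and 5.90 CPM and then 20.9, 21.3, 17.5 and 22 CPM, a 7.08-fold rise (log2 change 2.82, SE 0.38, adjusted p = 0.00132). All Py230 libraries were close to each other, whereas the tumour-free values differed several-fold. Lrg1, a secreted glycoprotein linked to vessel growth, rose 5.96-fold and Meox1, a homeobox transcription factor, 4.2-fold, from 5.78, 4.45, 2.75 and 7.33 CPM to 25.4, 22.9, 16.4 and 20.9 CPM (log2 change 2.07, SE 0.26, adjusted p = 0.000616). Mgp, the matrix Gla protein that inhibits calcification, rose 5.78-fold (118 to 176 CPM without, 573 to 1503 CPM with a tumour), with Py230 replicate 1 highest, and Fbln2, an elastic fibre protein, rose 5.77-fold. Beside these matrix genes the summed level of the fibroblast markers other than Dcn and Gsn, which were themselves called higher, was at 18.8 ± 5.67 plain CPM in tumour-free and 32.8 ± 15.2 in Py230 libraries (SD, n = 4 each; exact two-sided permutation p = 0.2). Of these markers Pi16 alone had separate groups, at 0.488 to 0.856 plain CPM in tumour-free and 1.22 to 4.88 in Py230 libraries. Cd34 was at 4.03 to 12.8 and 4.65 to 19.98 CPM, Ly6a at 0.813 to 2.22 and 1.71 to 7.43 CPM. Clec3b reached 1.89 CPM in tumour-free and 7.24 in Py230 libraries. Ccl11, Dpt and Mfap5 were at 7.90 CPM or less with overlapping groups, Dpt at 4.88 to 7.65 and 2.57 to 7.90 CPM. The part of such cells in these rises was not tested. Serpina3n, an acute-phase protease inhibitor, had the largest fitted change (log2 change 4.93, SE 0.99, adjusted p = 0.0472), but from 3.34, 2.63, 6.12 and 1.87 CPM to 296, 68.8, 38.2 and 40.6 CPM, so that 1 library stood far above the others; its adjusted p was 0.165 without tumour-free replicate 1, and it was called in 1 of the 8 fits.

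**Figure D2:**
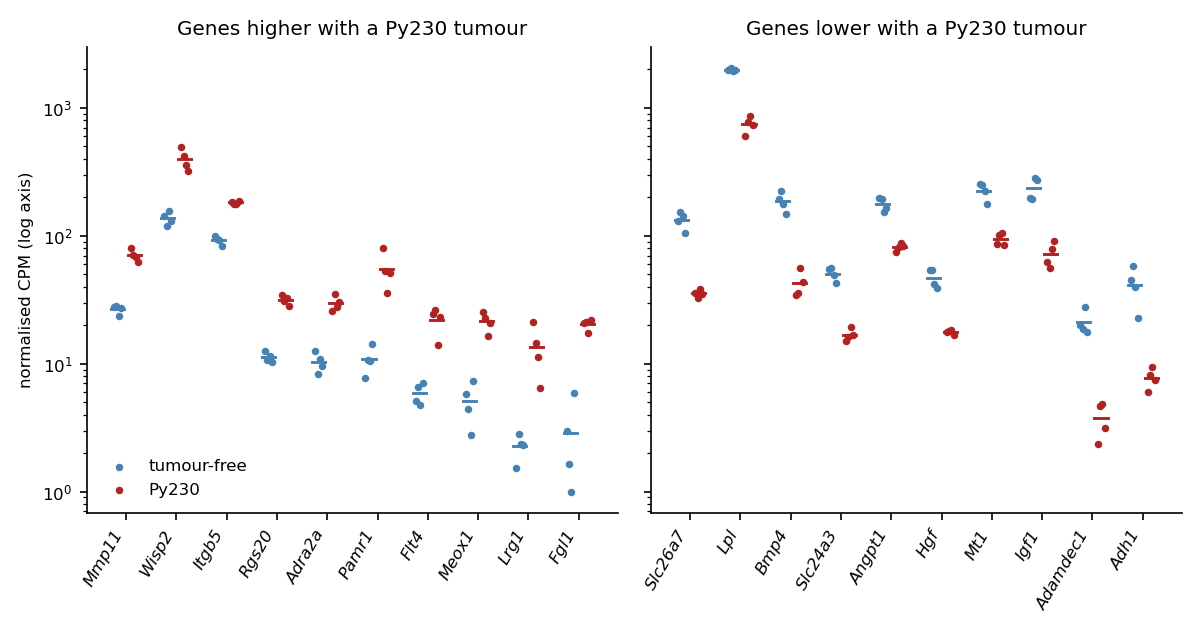
Normalised CPM on a log axis in each of the 4 tumour-free (blue) and 4 Py230 (red) libraries for 10 higher genes (left) and 10 lower genes (right); points are libraries and bars group means. In every gene shown the 4 Py230 libraries lie on one side of the 4 tumour-free libraries. This held for 743 of the 771 called genes and was required of genes named by fold, so it adds nothing to their calls.

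The genes that fell most reliably code for transporters, secreted growth factors and surface proteins. Slc26a7, an anion exchanger, had the smallest p of all genes, with 131, 153, 142 and 105 CPM in the tumour-free and 35.4, 32.7, 38.6 and 34.8 CPM in the Py230 libraries (log2 change −1.90, SE 0.12, adjusted p = 7.56e-06). It lies at chr4:14502430-14621805 on the minus strand. Lpl, the lipase that frees fatty acids from lipoproteins, was at 1984, 2042, 1952 and 1975 CPM without and 599, 781, 867 and 735 CPM with a tumour (log2 change −1.41, SE 0.12, adjusted p = 4.29e-05). Bmp4, a secreted signal in bone and fat formation, went from 195, 222, 176 and 149 CPM to 34.1, 35.8, 56.4 and 43.3 CPM (log2 change −2.12, SE 0.17, adjusted p = 4.29e-05). In these 3 genes every Py230 library was below every tumour-free library by a wide margin.

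Hgf, the hepatocyte growth factor, was at 53.6, 54.0, 42.1 and 38.8 CPM in tumour-free and 17.7, 18, 18.3 and 16.8 CPM in Py230 libraries (log2 change −1.4, SE 0.14, adjusted p = 8.97e-05), with almost no spread among the latter. Slc24a3, a sodium-calcium exchanger, was at 54.9, 55.8, 49.1 and 42.4 CPM and then 14.9, 16.2, 19.5 and 16.8 CPM (log2 change −1.57, SE 0.13, adjusted p = 4.29e-05). Angpt1, the vessel-stabilising ligand of Tie2, fell 2.17-fold, Igf1, an insulin-like growth factor, 3.29-fold, and Il7, which B and T cell precursors need, 2.79-fold. Pappa, a protease that releases IGF from Igfbp4, fell 2.53-fold (from 1025 ± 41.3 to 404 ± 84.3 CPM, SD, n = 4 each), and Igfbp4 itself fell 1.82-fold. Chrdl1, a secreted inhibitor of bone morphogenetic proteins, fell 3.62-fold, and Tnfaip6, a hyaluronan-binding protein that MSC secrete in inflammation, 2.12-fold.

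Enzyme genes among the strongest were Nnmt, which methylates nicotinamide (2.32-fold), the molybdenum enzyme gene Marc1 (2.62-fold), and Adh1, which oxidises retinol and ethanol (5.20-fold, from 44.8, 58.3, 39.8 and 22.6 CPM to 5.97, 8.22, 9.49 and 7.40 CPM). Adamdec1, a metalloprotease, had one of the largest falls, from 19.9, 18.8, 27.9 and 17.5 CPM to 2.35, 4.66, 4.8 and 3.14 CPM (log2 change −2.43, SE 0.24, adjusted p = 0.000104). The collagen receptor Ddr1, the lectin Cd93, the endocytic protein Ehd3, the formin Daam2 and the adhesion molecule Negr1 fell 2.08-fold, 2.60-fold, 2.48-fold, 2.66-fold and 2.30-fold. Cd83, known from mature dendritic cells, fell 5.46-fold, from 10.8, 6.75, 14.1 and 10.9 CPM to 2.99, 0.981, 1.56 and 2.69 CPM, and Ptchd4 and the lectin Colec11 fell 3.85-fold and 3.84-fold. Plin1, the coat protein of fat droplets, had the largest fitted fall, from 5.52, 7.41, 5.12 and 2.59 CPM to 1.49, 0, 0 and 0.673 CPM (log2 change −3.48, SE 0.90, adjusted p = 0.0462), but at low levels and with an adjusted p of 0.157 without tumour-free replicate 2, keeping its call in 2 of 8 fits.

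Among abundant genes, Cxcl12 fell 1.93-fold and the adhesion molecule Vcam1 1.81-fold, beside the cytokine inhibitor Socs3 (1.68-fold), the secreted Fstl1 (1.96-fold) and the transcription factor Ebf3 (1.64-fold). Abundant genes that rose were the collagenase Mmp13 (1.59-fold, 1013 ± 110.3 to 1607 ± 169 CPM), the angiogenic factor Vegfa (1.85-fold), the protease inhibitor Serpine2 (1.66-fold), Csmd1 (1.81-fold) and the RNA-binding protein Bicc1 (1.57-fold). The hypoxia-linked transcription factor Epas1 (1883 to 2092 CPM without, 2263 to 3174 CPM with a tumour) kept its call in 2 of 8 fits, with an adjusted p of 0.104 without Py230 replicate 3. The call was also lost for the abundant higher genes C3 (0.61, adjusted p = 0.118 without Py230 replicate 2), S1pr3 (0.73, adjusted p = 0.172 without tumour-free replicate 1) and Plekhg2 (0.53, adjusted p = 0.135 without tumour-free replicate 1). Among abundant lower genes it was lost for the transcription factor Klf6 (−0.67, adjusted p = 0.0712 without tumour-free replicate 2), the cadherin Cdh11 (−0.88, adjusted p = 0.0504 without tumour-free replicate 2) and the protease Adamts1 (−0.49, adjusted p = 0.125 without tumour-free replicate 2).

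Several further genes met the rule by fold or p. Perm1, known from muscle mitochondria, was at 1.65 to 4.31 CPM without and 6.95 to 16.9 CPM with a tumour (4.12-fold), and Gm826 at 4.88 to 7.62 and 12.6 to 30.8 CPM. Atxn7l1 and the scavenger receptor gene Scara3 rose 1.86-fold and 1.59-fold. The actin regulator Mtss1 fell 2.11-fold, from 115, 126, 111 and 157 CPM to 68.5, 57.4, 56.7 and 58.5 CPM, and Tmed5, which takes part in transport out of the endoplasmic reticulum, 1.94-fold. Gm2832 fell 5.11-fold, with 0.640 to 1.56 CPM in the Py230 libraries. The calls of 5 more higher genes of large fold were lost, the connexin gene Gja5 (2.54, adjusted p = 0.107 without tumour-free replicate 1), the secretin receptor gene Sctr (3.04, adjusted p = 0.0668 without Py230 replicate 2), Prph (1.91, adjusted p = 0.0982 without Py230 replicate 2), Myoc (1.88, adjusted p = 0.0817 without tumour-free replicate 1) and Slc44a5 (2.36, adjusted p = 0.202 without Py230 replicate 1). So were 2 lower ones, Tll2 (−2.0, adjusted p = 0.0777 without tumour-free replicate 2) and Gm4841 (−2.55, adjusted p = 0.155 without Py230 replicate 2).

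In most lists of secreted signals and their receptors more members were called lower than higher, as among all called genes (447 lower, 324 higher). Over all tested members the fitted changes were more even in some lists. Wnt genes had 18 above and 21 below 0, Hedgehog genes 6 and 7, and interleukins and their receptors 24 and 18. Of 39 Wnt pathway genes tested, 8 fell and 1 rose, a called share of 23.1%; their median log2 change was −0.15 against 0.04 over all tested genes. The receptors Fzd1, Fzd4, Fzd5 and Fzd7 fell 1.81-fold, 1.63-fold, 1.60-fold and 1.53-fold, the Wnt-enhancing ligand Rspo3 2.42-fold and the feedback inhibitor Nkd1 1.68-fold. The ligand Wnt4 rose, from 31.6, 33.9, 30.7 and 25.5 CPM to 90.7, 71.0, 72.2 and 43.5 CPM (log2 change 1.19, SE 0.18, adjusted p = 0.00278). Rspo2 and Sfrp2 were also called lower, but lost their calls at adjusted p-values of 0.0986 without Py230 replicate 4 and 0.114 without Py230 replicate 2. Across the 8 fits without 1 library, 6 to 9 Wnt genes were lower.

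Of 24 FGF and PDGF genes, 5 fell and 1 rose (25%, median −0.18). The receptor Fgfr1 went up, from 227, 251, 263 and 282 CPM to 594, 419, 392 and 378 CPM (log2 change 0.80, SE 0.14, adjusted p = 0.00451), while Fgfr2 went down, from 752, 719, 852 and 937 CPM to 527, 533, 555 and 480.0 CPM (log2 change −0.64, SE 0.11, adjusted p = 0.00384). The ranges of neither receptor overlapped. The epithelial growth factor Fgf7, the decoy receptor Fgfrl1 and the feedback inhibitor Spry1 fell 1.65-fold, 1.61-fold and 2.28-fold; the call of Fgfr3 (−0.55, adjusted p = 0.0858 without Py230 replicate 2) was lost.

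Of 31 ligands and receptors of the TGF-beta superfamily, 5 fell and 2 rose (22.6%, median −0.06). The activin antagonist Fst (follistatin) fell 2.64-fold and the activin receptor Acvr2a 1.73-fold, whereas Inhbb, which codes for the beta B subunit of activin and inhibin, rose 4.06-fold, from 3.08, 5.10, 6.62 and 3.88 CPM to 35.6, 16.1, 12.6 and 12.8 CPM (log2 change 2.02, SE 0.36, adjusted p = 0.00724). Py230 replicate 1 was highest for Inhbb and for Fst among the Py230 libraries, and neither gene had overlapping groups. Gdf10 fell 2.65-fold and the follistatin-like Fstl1 1.96-fold; the calls of Tgfbr3 (−0.46, adjusted p = 0.171 without tumour-free replicate 2) and Smad7 (0.55, adjusted p = 0.0982 without tumour-free replicate 1) were lost. Hedgehog genes had 3 lower and 2 higher of 13 (38.5%, median −0.02): the co-receptor Gas1 fell 2.29-fold and the signal transducer Smo 1.43-fold, and the calls of Gli2 (−0.59, adjusted p = 0.0597 without tumour-free replicate 3), Gli1 (1.45, adjusted p = 0.127 without Py230 replicate 4) and Sufu (0.35, adjusted p = 0.158 without tumour-free replicate 1) were lost.

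No chemokine rose. Of 17 tested, 5 fell (29.4%, median −0.54), and 15 of the 17 fitted changes were below 0. Besides Cxcl12, the membrane-bound chemokine Cx3cl1 fell 1.46-fold, from 184, 199, 194 and 205 CPM to 115, 146, 152 and 122 CPM. The interferon-induced Cxcl10, from 323, 279.9, 216 and 130.1 CPM to 19.8, 74.7, 49.9 and 51.8 CPM, had an adjusted p of 0.122 without Py230 replicate 3, and the calls of Ccl7 (−0.88, adjusted p = 0.107 without Py230 replicate 2) and Cxcl13 (−1.57, adjusted p = 0.111 without tumour-free replicate 1) were lost too. Of 42 interleukins and their receptors 4 fell and 2 rose (14.3%, median 0.10). Il34, a ligand of the macrophage receptor Csf1r, fell from 47.7, 46.6, 45.8 and 43.1 CPM to 26, 19.9, 23.0 and 21.3 CPM (log2 change −1.03, SE 0.12, adjusted p = 0.000265), and the interleukin 1 receptor Il1r1 rose 1.94-fold, from 215, 229, 349 and 313 CPM to 577, 550.2, 490.3 and 531 CPM. The calls of Il15 (−0.73, adjusted p = 0.0755 without tumour-free replicate 2), Il17d (−1.28, adjusted p = 0.0724 without tumour-free replicate 2) and Il17rd (0.59, adjusted p = 0.17 without tumour-free replicate 1) were lost.

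Second messenger and guidance genes moved both ways. Of 23 phosphodiesterases, Pde9a and Pde5a, which break down cyclic GMP, rose 3.39-fold and 1.63-fold, and Pde1a, which is stimulated by calcium, fell 1.65-fold (13%, median 0.24). Pde9a was at 9.76, 12.7, 23.7 and 20.1 CPM in tumour-free and 46.1, 58.4, 58.5 and 62.8 CPM in Py230 libraries. Of 15 RGS proteins and their partners 3 were called (20%, median 0.15): Rgs20 rose, and the calls of Rgs4 (1.64, adjusted p = 0.184 without tumour-free replicate 1) and Rgs7bp (−1.26, adjusted p = 0.128 without tumour-free replicate 2) were lost. Rgs20, Rgs4 and Spry1 were the called members among 26 genes of Ras, MAP kinase and G protein feedback (11.5%, median −0.06). Of 21 adrenergic and neurotrophic genes, 4 were called (19%, median 0.05), of which Adra2a alone held; the beta-3 receptor Adrb3 was at 6.0 to 12.5 CPM without and 1.35 to 5.32 CPM with a tumour, and its call was lost, as were those of the prostaglandin receptor gene Ptger4 and, on the higher side, the GDNF receptor gene Ret: Adrb3 (−1.73, adjusted p = 0.0977 without tumour-free replicate 2), Ptger4 (−0.71, adjusted p = 0.0753 without tumour-free replicate 2) and Ret (0.93, adjusted p = 0.0644 without tumour-free replicate 1).

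Of 54 axon guidance genes 5 rose and 4 fell (16.7%, median 0.13); of 28 semaphorins and plexins, which overlap with them, 2 rose and 4 fell (21.4%, median 0.10). The ligand Sema6d rose 1.81-fold and the semaphorin receptor Plxna2 fell 1.96-fold, from 676, 569, 545 and 639 CPM to 199, 306, 380.3 and 356 CPM. The other lower genes lost their calls, namely Plxnc1 (−0.89, adjusted p = 0.0652 without tumour-free replicate 2), Sema5a (−0.53, adjusted p = 0.0732 without tumour-free replicate 2) and Plxnd1 (−0.38, adjusted p = 0.147 without Py230 replicate 2). So did the other higher genes, Sema3c (1.64, adjusted p = 0.145 without Py230 replicate 3), Unc5c (0.65, adjusted p = 0.101 without tumour-free replicate 1), Slit2 (0.46, adjusted p = 0.153 without tumour-free replicate 1) and Efna2 (0.63, adjusted p = 0.15 without Py230 replicate 3). Among 20 Notch genes 3 were called (15%, median 0.07), all of them lost without some library: Hey2 (1.70, adjusted p = 0.0585 without tumour-free replicate 1), Dtx4 (0.58, adjusted p = 0.159 without tumour-free replicate 1) and Lfng (−0.63, adjusted p = 0.058 without Py230 replicate 2).

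Of 43 transcription factors of mesenchymal lineages 9 fell and 2 rose (25.6%, median −0.16), and 29 of the 43 fitted changes were below 0. Ebf3, which keeps marrow stroma free of bone, fell from 1687, 1542, 1764 and 1792 CPM to 827, 1093, 1192 and 1032 CPM (log2 change −0.71, SE 0.12, adjusted p = 0.00383), and Meox1 rose; their calls held in all 8 fits. The fat-lineage factors Pparg (−0.61, adjusted p = 0.0895 without tumour-free replicate 2), Cebpa (−0.53, adjusted p = 0.129 without tumour-free replicate 3), Cebpb (−0.45, adjusted p = 0.146 without tumour-free replicate 2) and Cebpd (−0.52, adjusted p = 0.123 without Py230 replicate 4) lost theirs. The same was true of Ebf1 (−0.60, adjusted p = 0.0771 without tumour-free replicate 2), Sox9 (−0.78, adjusted p = 0.0656 without Py230 replicate 2), Zeb2 (−0.42, adjusted p = 0.109 without Py230 replicate 4) and Id3 (−0.52, adjusted p = 0.119 without Py230 replicate 2), and, among the higher genes, of Twist2 (0.77, adjusted p = 0.159 without tumour-free replicate 1). Without 1 library 2 to 6 of these factors were lower. Of 35 nuclear receptors 1 rose and 3 fell (11.4%, median −0.00), with all 4 calls lost in some fit: those of Ppard (0.94, adjusted p = 0.0647 without tumour-free replicate 1), Pparg, Nr3c2 (−0.51, adjusted p = 0.117 without Py230 replicate 2) and Nr3c1 (−0.37, adjusted p = 0.122 without tumour-free replicate 3).

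Of 20 genes of the glucocorticoid response, the receptor Nr3c1 among them, 5 fell and 1 rose (30%, median −0.36, 13 of 20 below 0). The metallothioneins Mt1 and Mt2, which bind zinc and copper and are induced by metals and by glucocorticoids, fell 2.40-fold and 1.97-fold. Mt1 was at 252, 248, 225 and 178 CPM in tumour-free and 85.6, 101, 104 and 84.3 CPM in Py230 libraries (log2 change −1.26, SE 0.12, adjusted p = 8.97e-05), and Mt2 at 157, 163, 134 and 86.9 CPM and 75.7, 64.6, 72.9 and 60.8 CPM (log2 change −0.98, SE 0.17, adjusted p = 0.00545). The highest Py230 value stayed below the lowest tumour-free value in both genes, for Mt2 by a narrow margin. The glucocorticoid receptor Nr3c1, Tsc22d3 (GILZ) and Cebpd were called lower too, with log2 changes of −0.37, −0.59 and −0.52, but had adjusted p-values of 0.122 without tumour-free replicate 3, 0.0623 without tumour-free replicate 3 and 0.123 without Py230 replicate 4. Ddit4, an inhibitor of mTOR that is also a stress and hypoxia target, rose 2.13-fold.

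Mt1 and Mt2 lie next to each other on the plus strand of chromosome 8, within 7.66 kb, and their promoters are shown because both genes moved together. The windows run from 250 bases before to 50 bases after the start given by RefSeq (GRCm38.p6), 5′ to 3′ on the strand of the gene. Capitals mark matches on either strand to the core of the metal response element, searched as TGCACNC or TGCGCNC. The window of Mt1 is chr8:94178839-94179138 and that of Mt2 chr8:94172368-94172667.
Mt1: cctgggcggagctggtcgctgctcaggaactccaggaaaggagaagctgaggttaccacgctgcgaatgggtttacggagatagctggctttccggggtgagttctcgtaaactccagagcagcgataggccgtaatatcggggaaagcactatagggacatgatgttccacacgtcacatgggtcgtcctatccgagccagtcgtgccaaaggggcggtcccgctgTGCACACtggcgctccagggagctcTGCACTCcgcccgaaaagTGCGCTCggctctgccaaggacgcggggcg
Mt2: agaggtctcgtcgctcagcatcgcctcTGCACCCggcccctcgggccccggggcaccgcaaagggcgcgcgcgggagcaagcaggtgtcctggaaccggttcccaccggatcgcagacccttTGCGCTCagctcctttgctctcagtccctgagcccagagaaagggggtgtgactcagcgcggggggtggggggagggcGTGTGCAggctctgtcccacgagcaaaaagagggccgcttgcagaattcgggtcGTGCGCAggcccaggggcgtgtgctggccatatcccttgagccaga
Mt1 holds 3 matches and Mt2 holds 4. Among 11020 promoters of tested genes of the same length, 35.5% held at least 1 match, 3.33% at least 3 and 0.880% at least 4. At least 3 matches were in 4.46% of the promoters of lower genes and in 3.85% of those of higher genes. A match describes the letters in this window only.

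Iron and zinc genes moved in both directions: of 22 genes of metal ion handling 4 fell and 3 rose (31.8%, median −0.02). Besides the metallothioneins, the iron exporter Slc40a1 (ferroportin) fell from 121, 101, 89.4 and 97.1 CPM to 44.4, 47.7, 63.0 and 57.4 CPM (log2 change −0.94, SE 0.13, adjusted p = 0.0012). The other members lost their calls: the ferroxidase gene Heph (−0.72, adjusted p = 0.0777 without tumour-free replicate 2), and, among higher genes, the zinc and iron importer gene Slc39a14 (0.54, adjusted p = 0.122 without tumour-free replicate 1), the transferrin receptor gene Tfrc (0.75, adjusted p = 0.134 without tumour-free replicate 2) and the ferrireductase gene Steap3 (0.97, adjusted p = 0.147 without Py230 replicate 2).

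Of 16 interferon-induced GTPases, which attack the membranes of vacuoles that hold pathogens, 4 fell and none rose (25%, median −0.73, 14 of 16 below 0). Irgm1 was at 207, 226, 214 and 87.3 CPM in tumour-free and 34.8, 61.7, 49.0 and 48.2 CPM in Py230 libraries (log2 change −1.91, SE 0.31, adjusted p = 0.00986), Igtp at 41.9, 37.9, 62.0 and 27.3 CPM and 10, 23.6, 13.8 and 17.9 CPM. Tumour-free replicate 4 was the lowest of its group for both genes, and groups did not overlap. All 4 calls depended on single libraries: Irgm1 (−1.91, adjusted p = 0.0525 without Py230 replicate 3), Igtp (−1.36, adjusted p = 0.0852 without Py230 replicate 3), Iigp1 (−1.89, adjusted p = 0.108 without Py230 replicate 4) and Ifi47 (−0.99, adjusted p = 0.143 without Py230 replicate 3). None of the 4 was called without the library of fewest genes in each group. These genes belong to families of close copies, among which the counting could have split reads. The promoters of Irgm1 (chr11:48871371-48871670, minus strand) and Igtp (chr11:58199306-58199605, plus strand) are shown as above, because they hold matches, in capitals, to the core of the interferon response element, searched on either strand as GAAA, any 2 bases and GAAA again.
Irgm1: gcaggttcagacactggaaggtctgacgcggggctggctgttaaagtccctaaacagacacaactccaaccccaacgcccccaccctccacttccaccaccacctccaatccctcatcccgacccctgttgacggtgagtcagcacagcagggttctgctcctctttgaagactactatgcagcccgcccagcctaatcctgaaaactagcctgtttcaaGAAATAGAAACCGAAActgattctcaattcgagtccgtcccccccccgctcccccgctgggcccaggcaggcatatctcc
Igtp: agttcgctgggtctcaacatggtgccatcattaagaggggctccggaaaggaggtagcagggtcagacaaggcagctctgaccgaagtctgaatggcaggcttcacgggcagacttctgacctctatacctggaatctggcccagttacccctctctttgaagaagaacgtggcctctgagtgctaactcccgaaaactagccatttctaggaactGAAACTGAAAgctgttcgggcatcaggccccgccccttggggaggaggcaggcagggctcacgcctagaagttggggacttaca
Irgm1 has 2 matches that overlap each other and Igtp has 1, whereas the windows of Ifi47 and of Irf1, both also called lower, hold none. At least 1 match was in 3.03% of the 11020 promoters, in 4.46% of those of lower genes and in 4.27% of those of higher genes.

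Matrix and adhesion genes moved both ways. Of 23 integrin subunits 3 rose and 1 fell (17.4%, median 0.39, 16 of 23 above 0). Besides Itgb5, Itgb3, its counterpart in another vitronectin receptor, rose from 42.9, 33.1, 25.6 and 23.7 CPM to 70.8, 101, 96.2 and 64.4 CPM (log2 change 1.42, SE 0.20, adjusted p = 0.00214); the calls of Itga2 (0.94, adjusted p = 0.136 without tumour-free replicate 3) and Itga8 (−1.13, adjusted p = 0.0791 without Py230 replicate 2) were lost. Of 29 basement membrane genes 5 fell and 1 rose (20.7%, median −0.09). The laminin chain gene Lama4, typical of vessel walls, rose 1.71-fold, while Lama1 fell 4.04-fold and Lama2 1.67-fold. Lama1 was at 175, 143, 125 and 68.4 CPM without and 37.8, 27.2, 30.8 and 31.4 CPM with a tumour, and Lama4 at 225, 201, 249 and 247 CPM and 442, 409.9, 368 and 361 CPM. The laminin linker Nid2 and the integrin ligand Npnt fell 1.59-fold and 3.30-fold; the call of Nid1 (−0.40, adjusted p = 0.152 without tumour-free replicate 2) was lost. Lama1, Lama2 and Lama4 were the only called genes of the 11 laminins (27.3%, median −0.07).

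None of 22 ADAMTS proteases and ADAMTS-like proteins, which trim proteoglycans and shape microfibrils, rose, and 6 fell (27.3%, median −0.09). Adamtsl3 was at 238, 225, 188 and 186 CPM in tumour-free and 55, 69.3, 81.6 and 88.8 CPM in Py230 libraries (log2 change −1.51, SE 0.14, adjusted p = 8.77e-05). Adamts5, an aggrecan-cleaving enzyme, fell 1.66-fold and Adamts15 2.06-fold, and their aggrecan substrate gene Acan, from 15.3, 8.4, 7.75 and 15.2 CPM to 2.13, 2.45, 1.56 and 4.04 CPM, 4.73-fold. The calls of Adamts9 (−1.67, adjusted p = 0.0679 without Py230 replicate 4), Adamts4 (−0.40, adjusted p = 0.113 without Py230 replicate 2) and Adamts1 (−0.49, adjusted p = 0.125 without tumour-free replicate 2) were lost. Of 22 elastic and microfibril genes 3 rose and 2 fell (22.7%, median −0.11): Fbln2, Mgp and Ltbp1 (1.5-fold) rose, Ltbp2 fell 2.06-fold, from 1314, 1245, 1212 and 803 CPM to 364, 612, 670.3 and 572 CPM, and the call of Efemp1 (−1.52, adjusted p = 0.0517 without Py230 replicate 4) was lost. In bone remodelling the phosphate regulator Phex and the small proteoglycans Ogn and Omd fell 3.74-fold, 3.02-fold and 2.97-fold, and the call of Enpp1 (0.57, adjusted p = 0.103 without Py230 replicate 3), higher, was lost (25% of 16 called, median 0.03). Of 44 collagens 1 was higher and 1 lower (4.55%).

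More complement and coagulation genes rose than fell, 6 against 2 of 33 (24.2%, median 0.18, 23 of 33 above 0). The secreted C1qtnf1, a relative of complement C1q, rose from 16.8, 14.5, 19.2 and 16.2 CPM to 58.5, 35.1, 32.7 and 41.0 CPM (log2 change 1.31, SE 0.18, adjusted p = 0.0012). Tfpi, the inhibitor of the tissue factor pathway, rose 1.72-fold and Serpine2, which inhibits thrombin, from 1055, 965, 933 and 943 CPM to 1344, 1679, 1653 and 1779 CPM. Gas6, the ligand of the Axl receptor, fell from 1339.9, 1312, 1375 and 866 CPM to 382, 448, 591 and 442 CPM (log2 change −1.39, SE 0.16, adjusted p = 0.000458). The calls of Cd55 (0.92, adjusted p = 0.0625 without Py230 replicate 2) and C3 (0.61, adjusted p = 0.118 without Py230 replicate 2), and of the lower gene Thbd (−0.47, adjusted p = 0.073 without tumour-free replicate 2), were lost. Among 20 serpins 3 rose and 2 fell (25%, median 0.24). Serpina3n, called higher, had an adjusted p of 0.165 without tumour-free replicate 1. Serpina3g and Serpina3f, which fell 1.53-fold and 1.89-fold, and Serpina3n are close copies in 1 cluster on chromosome 12, so how their reads were divided is uncertain.

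The lists of metabolism and stress held 3 or 4 called genes each. In fatty acid handling 3 genes fell and 1, Ppard, given above, rose (12.1% of 33 called, median −0.05), with the acyl-CoA synthetase Acsl1 down 1.80-fold and the droplet protein Plin2 1.97-fold. Of 27 retinoid and steroid genes, the cholesterol exporter Abca1 rose 1.60-fold and the retinal reductase Dhrs3 fell 2.18-fold, and the call of Ch25h (−1.22, adjusted p = 0.118 without tumour-free replicate 2) was lost (11.1%, median −0.02). Of 22 p53 targets 3 rose (13.6%, median 0.18): the cell cycle inhibitor Cdkn1a went from 110.0, 125, 141 and 109 CPM to 233, 229.7, 240.1 and 171 CPM (log2 change 0.85, SE 0.12, adjusted p = 0.00161), Ddit4 rose, and the call of Polk (0.77, adjusted p = 0.137 without tumour-free replicate 1) was lost. In the NRF2 and glutathione list Gsta4 and Sod2 fell 2.44-fold and 1.56-fold, and Gclc (0.46, adjusted p = 0.121 without Py230 replicate 3), higher, lost its call (11.1% of 27, median −0.04). All 3 calls among 25 ATF4 targets, all higher, were lost: Ddit3 (0.56, adjusted p = 0.0968 without tumour-free replicate 2), Shmt2 (1.09, adjusted p = 0.154 without tumour-free replicate 1) and Slc7a5 (0.67, adjusted p = 0.139 without Py230 replicate 3) (12%, median −0.04).

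More called regulators of the cytoskeleton fell than rose, although 33 of 55 fitted changes of RhoGAP and RhoGEF genes were above 0. Of 55 RhoGAP and RhoGEF genes 5 fell and 1 rose (10.9%, median 0.06), with Arhgap28 down 2.27-fold and Arhgap26 1.52-fold; the calls of Arhgef40 (−0.50, adjusted p = 0.0578 without Py230 replicate 2), Arhgap18 (−0.51, adjusted p = 0.0669 without tumour-free replicate 2), Arhgap6 (−0.48, adjusted p = 0.105 without Py230 replicate 4) and Arhgef2 (0.63, adjusted p = 0.0956 without tumour-free replicate 1) were lost. All called members of the actin and focal adhesion list (12.1% of 33, median −0.17, 25 below 0) and of the YAP and TEAD targets (14.3% of 21, median −0.07) lost their calls: Cnn2 (−0.89, adjusted p = 0.0567 without Py230 replicate 1), Vcl (−0.50, adjusted p = 0.127 without tumour-free replicate 2), Actn4 (−0.42, adjusted p = 0.155 without tumour-free replicate 2) and Pdlim7 (0.36, adjusted p = 0.182 without tumour-free replicate 1) in the former and Axl (0.63, adjusted p = 0.0943 without tumour-free replicate 2), Amotl2 (−0.47, adjusted p = 0.0718 without tumour-free replicate 2) and Tead1 (−0.43, adjusted p = 0.0832 without Py230 replicate 3) in the latter. Of 48 TRIM proteins, Trim69 and Trim46 rose 2.41-fold and 2.24-fold, Trim65 fell 1.88-fold and the call of Trim72 (0.66, adjusted p = 0.0928 without tumour-free replicate 1) was lost (8.33%, median 0.14).

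Several large families held no called gene. No call was made among 44 proteasome subunits (edgeR's test; 2 had an unadjusted p under 0.05), 52 translation factors (6), 38 histone genes (6), 20 S100 proteins and annexins (3), 31 small nucleolar RNAs (2), 38 microRNA genes (3) or 35 olfactory and vomeronasal receptors (1). Of all tested genes, 16.2% had an unadjusted p under 0.05. Of the proteasome subunits 35 of 44 had a fitted change below 0, with a median of −0.09. Of 259 solute carriers 4 rose and 10 fell (5.41%), and of 350 zinc finger factors of the Zfp names 1 rose and 3 fell (1.14%). Without the library of fewest genes in each group, fewer genes were called in general, 303 lower and 189 higher of 16669 tested. Lower in that fit were 6 of the 39 Wnt genes, 5 of 24 FGF and PDGF genes and 6 of 20 genes of the glucocorticoid list. So were 4 of 22 ADAMTS genes, 3 of 43 mesenchymal transcription factors and 2 of 17 chemokines. Of 33 complement and coagulation genes 4 were higher. The plot of gene lists shows the shares in both directions.

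**Figure D3:**
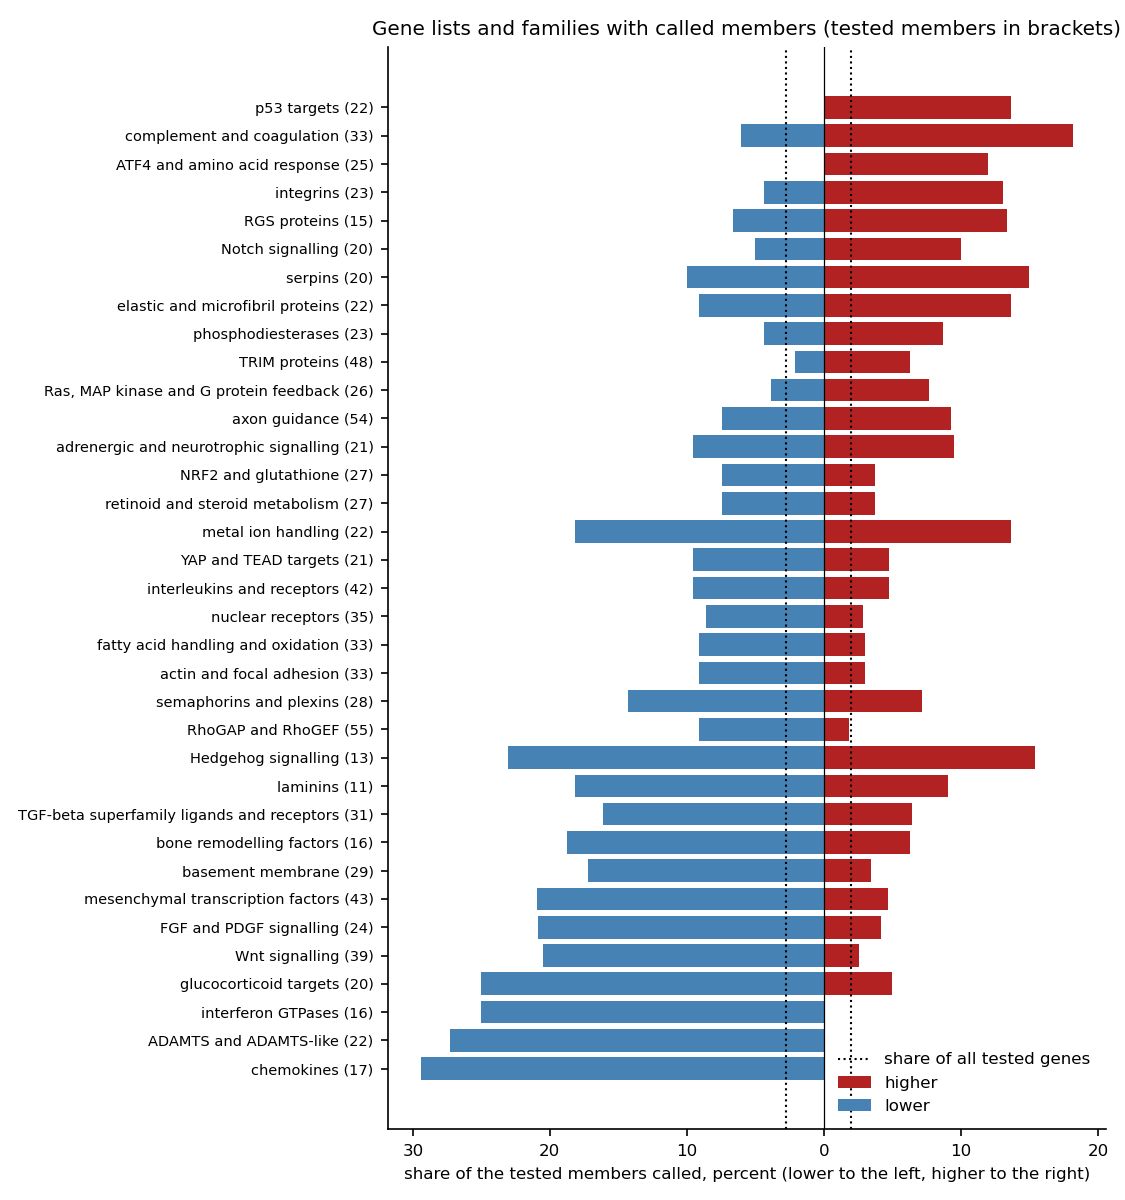
Share of the tested members of each gene list or family (number tested in brackets) that was called higher (red, to the right) or lower (blue, to the left), in percent, for the 35 described lists with any call. Lists are shown only where the called share was at least 1.5 times that of all tested genes. A called share above that of all genes therefore follows from the selection. Dotted lines mark the shares over all 16317 tested genes, 1.99% higher and 2.74% lower; chemokines, ADAMTS proteins and interferon GTPases have calls on the lower side only, and p53 and ATF4 targets on the higher side only.

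By gene class, 725 of 13610 protein-coding genes were called (5.33%) and 46 of 2707 genes of other classes (1.7%). F730043M19Rik, a noncoding RNA that starts at a shared promoter, had the largest change of these, from 1.93, 3.13, 2.0 and 1.29 CPM to 52.1, 21.6, 11.7 and 15.9 CPM (log2 change 3.59, SE 0.52, adjusted p = 0.00417). Py230 replicate 1 was highest, yet all 4 Py230 libraries lay above all tumour-free ones. Gm37079 rose 3.19-fold, but it lies inside Rgs20 on the same strand, so its reads cannot be told apart from those of unspliced Rgs20 RNA. Gdap10, which fell 2.11-fold, overlaps Nampt on the same strand, itself called lower: Nampt (−0.81, adjusted p = 0.0615 without tumour-free replicate 2). Atcayos, antisense to Atcay, Gm8696 and Gm27599 rose 2.84-fold, 3.67-fold and 3.06-fold, and Gm31520, BC023105, Gm37304 and Gm20619 fell 4.78-fold, 7.34-fold, 2.08-fold and 2.20-fold. The sources used here do not give the strand setting of the counter, so reads of antisense partners may be mixed.

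Called genes were found on all autosomes and on chromosome X. The called share ran from 2.23% on chromosome 19 to 6.84% on chromosome 10. On chromosome X, 29 genes were lower and 4 higher of 500 tested (6.60%), among the lower ones Chrdl1, Phex, Tsc22d3 (−0.59, adjusted p = 0.0623 without tumour-free replicate 3) and Heph (−0.72, adjusted p = 0.0777 without tumour-free replicate 2). None of 15 mitochondrial genes was called. Next to each other along the chromosome and changed in the same direction were 123 called genes in 57 runs, 17 of higher and 40 of lower genes. Neighbours were taken among tested protein-coding genes, of which 5.33% were called, and the runs spanned 3.17 to 3920 kb. How many runs that share alone would give was not computed. A run of 4 higher genes, Mtx1, Thbs3, Muc1 (1.06, adjusted p = 0.195 without tumour-free replicate 1) and Trim46, lay within 37.2 kb on chromosome 3.

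Markers of other cell types were summed per library in plain CPM, without scaling. The sum of 10 LepR+ mesenchymal markers went from 30927 ± 1173 to 20274 ± 926 CPM (exact two-sided permutation p = 0.0286, the smallest that 4 against 4 libraries allow; adjusted over 21 sums p = 0.0857), with Cxcl12 supplying 58.4% of it. Without Cxcl12 it went from 11413 ± 529 to 9866 ± 472 CPM, a log2 ratio of −0.21 against −0.61. Of its members Cxcl12, Ebf3 and Adipoq were called lower, while Lepr, Kitl and Pdgfrb were not called; without the called members, a choice made after seeing the data here and for the other lists, the sum was at 9099 ± 462 and 8613 ± 629 CPM (exact permutation p = 0.286). The sum of 10 fibroblast markers went from 308 ± 38.3 to 623 ± 78.3 CPM (exact permutation p = 0.0286, adjusted 0.0857), of which Dcn gave 52.7%. Dcn and Gsn were called higher, and the other markers summed to 13.4, 17.7, 26.8 and 17.1 CPM in tumour-free and 26.1, 15.1, 41.4 and 48.8 CPM in Py230 libraries, so that the groups overlapped (exact permutation p = 0.2). Tendon-like markers summed to 41.1, 18.5, 99.98 and 34.7 CPM in tumour-free libraries and 121, 119, 357 and 457 CPM in Py230 libraries (exact permutation p = 0.0286, adjusted 0.0857), with no single marker called. Without Prg4, a joint lubricant that gave 44.4% of it, this sum was at 30.6 ± 15.6 and 143 ± 119 CPM (exact permutation p = 0.114). Markers of monocytes and macrophages summed to 57.8 ± 6.41 without and 94.7 ± 13.4 CPM with a tumour (exact permutation p = 0.0286, adjusted 0.0857). Cd68 gave 59.0% of it, at 34.3 to 38.5 CPM in tumour-free and 40.5 to 69.3 CPM in Py230 libraries. Csf1r was called higher, and without it the sum was at 48.8 ± 4.79 and 69.3 ± 8.09 CPM (exact permutation p = 0.0286). Apart from Cd68 and Csf1r, every marker of this list had overlapping groups. Mrc1 was at 4.40 to 5.18 and 1.73 to 8.37 CPM, Lyz2 at 0.871 to 7.80 and 1.86 to 3.60 CPM. A sum without both Cd68 and Csf1r was not tested.

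Sinusoidal endothelial markers went from 51.0 ± 10.8 to 99.1 ± 36.3 CPM (exact permutation p = 0.0571, adjusted 0.12), including Flt4 and Stab1, both called higher. Without them the sum was at 33.8 ± 10 and 54.9 ± 30.8 CPM, with overlapping groups (exact permutation p = 0.286). Of 12 markers of mammary epithelium and tumour, including Epcam and the keratins Krt5, Krt8, Krt14, Krt18 and Krt19, each was at 8.29 CPM or less in every library, and their sum went from 9.21 ± 5.48 to 14 ± 9.92 CPM (exact permutation p = 0.429, adjusted 0.529). This sum was lowest in Py230 replicate 3 (2.85 CPM) and highest in Py230 replicate 4 (25.6 CPM). The olfactory and vomeronasal receptor sum had its extremes in the same libraries (39.8 and 1376 CPM), which also had the fewest and most genes at equal depth. Neutrophil marker sums were at 46.0 ± 33.5 and 41.7 ± 18.3 CPM (exact permutation p = 0.8, adjusted 0.84). No marker of the 20 cell type lists was at 0 in all libraries. The part of such cells in the changes described here was not tested.

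**Figure D4:**
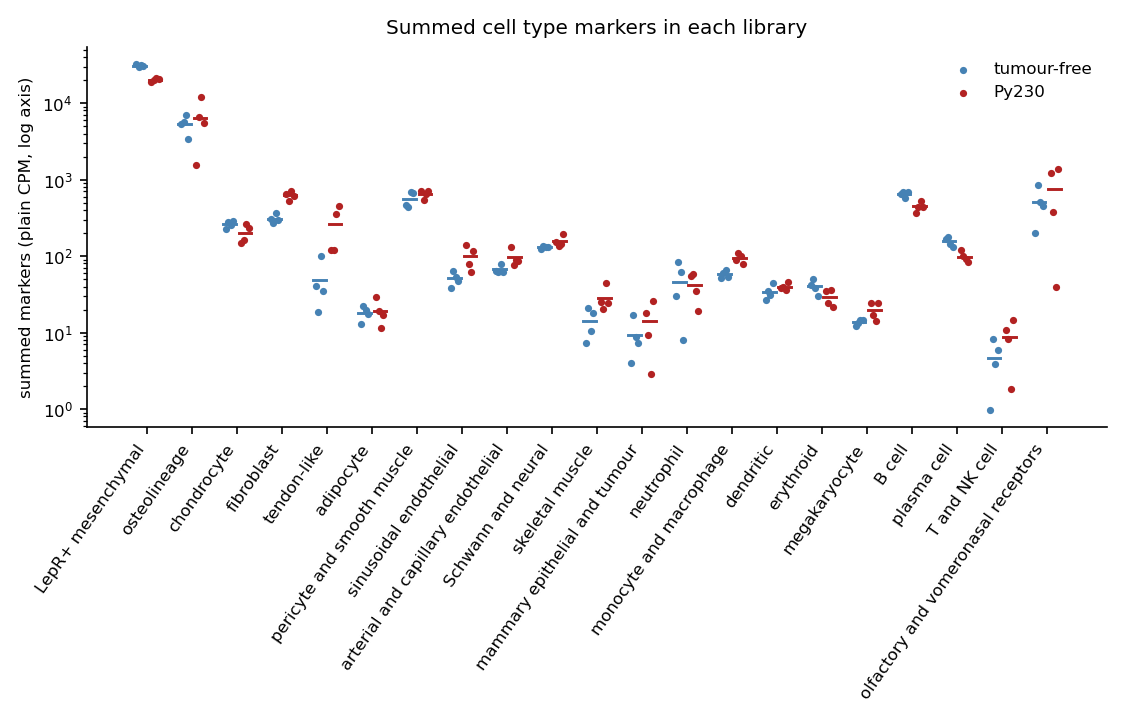
Summed markers of 20 cell types and of the olfactory and vomeronasal receptors in plain CPM on a log axis, in each of 4 tumour-free (blue) and 4 Py230 (red) libraries; points are libraries and bars group means. LepR+ markers were lower and fibroblast and tendon-like markers higher in every Py230 library, and the olfactory sum, which ranged from 39.8 to 1376 CPM, overlapped between the groups.

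The single-cell libraries show where the bulk genes are expressed in marrow stroma. After filtering, 2190 WT cells were available in 6 clusters, numbered by the authors and named here from marker genes. Of these, LepR+ mesenchymal-like, tendon-like, fibroblast-like and osteolineage-like cells were compared. Of 417 genes lower in the bulk comparison with at least 20 unique molecular identifiers (UMIs) in WT cells, 300 (71.9%) had their highest level in LepR+ cells, against 4726 of 11732 tested genes (40.3%). Of 290 higher genes 126 (43.4%) peaked in LepR+ cells, 73 (25.2%) in fibroblast-like and 62 (21.4%) in tendon-like cells, against 40.3%, 28.5% and 17.6% of all tested genes. These shares leave out the sinusoidal and capillary endothelial-like clusters, so genes counted under LepR+ cells include some that were higher there. In CPM of summed UMIs, Tfpi, higher in bulk, was at 3918 in sinusoidal endothelial-like and 127 in LepR+ cells. Cd93, lower in bulk, was at 1217 CPM in capillary endothelial-like and 43.2 CPM in LepR+ cells. Dcn was at 673 CPM in LepR+, 26268 in tendon-like and 13414 in fibroblast-like cells, Pamr1 at 5.94, 155 and 129 CPM and Fbln2 at 3.78, 664 and 1231 CPM. Flt4 and Lrg1 were at 688 and 1067 CPM in sinusoidal endothelial-like cells and at 2.70 and 12.7 CPM in LepR+ cells. By contrast Slc26a7, Pappa, Chrdl1, Il7 and Lama1 among the lower genes, and Rgs20, Csmd1 and Wisp2 among the higher ones, had their highest level of the 4 compared clusters in LepR+ cells.

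The PyMT stromal library, from a different tumour model, was set beside the bulk change within LepR+ cells alone, 977 WT and 2242 PyMT cells. With 1 library per genotype there is no test; intervals are 95% exact intervals on counts and cover counting error only. Genes needed at least 20 UMIs in WT and PyMT LepR+ cells together. A gene could thus pass mainly through the PyMT cells, as Inhbb did with 3 WT and 64 PyMT UMIs, which favours ratios above 1. Of 301 such genes higher in bulk, 270 (89.7%) had a PyMT over WT ratio above 1 in LepR+ cells, with a median log2 ratio of 0.53. Of 422 lower genes 297 (70.4%) were below, with a median of −0.28. Among all 11929 tested genes that passed the same threshold 58.8% were above and 41.2% below, with a median of 0.09. Genes with the same sign in both were Fgl1 (log2 ratio 2.74, 1.94 to 3.67), Pamr1 (1.87, 1.24 to 2.58), Adra2a (1.64, 0.97 to 2.38), Wisp2 (1.30, 1.2 to 1.41) and Rgs20 (1.2, 0.78 to 1.64) among the higher ones. Among the lower ones were Adamdec1 (−2.41, −2.81 to −2.02), Adh1 (−2.30, −2.64 to −1.97), Bmp4 (−1.44, −1.56 to −1.33) and Slc40a1 (−1.32, −1.5 to −1.13).

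Some bulk genes went the other way in the LepR+ cells. Spry1 went from 327 CPM in WT to 414 CPM in PyMT cells (0.34, 0.25 to 0.43), Tnfaip6 from 69.4 to 115 CPM (0.72, 0.53 to 0.92) and Tmed5 from 169 to 265 CPM (0.65, 0.52 to 0.78), although all 3 fell in bulk. Adamts5 and Sod2, lower in bulk, were above as well (0.53, 0.42 to 0.63 and 0.51, 0.36 to 0.66). Abca1, higher in bulk, was below (−0.44, −0.64 to −0.25). Hgf, Adamtsl3 and Fzd1 had intervals that include 0 (−0.54 to 0.21, −0.27 to 0.13 and −0.34 to 0.04). No test compared the tumour models.

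**Figure D5:**
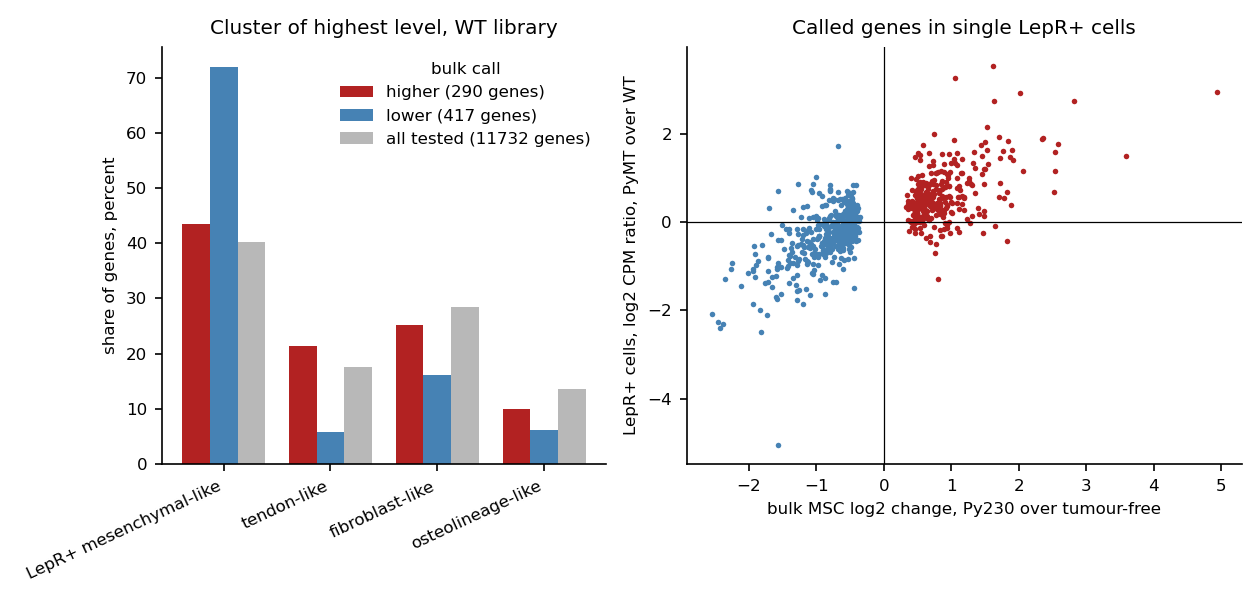
Left: share of genes, in percent, whose highest CPM among 4 clusters of WT stromal cells was in each cluster, for genes called higher (red, 290) or lower (blue, 417) in bulk and for all tested genes (grey, 11732). Right: each point is a gene called in bulk, with its bulk log2 change (x) and its log2 CPM ratio, PyMT over WT, in LepR+ cells (y); of the higher genes 89.7% lie above 0 and of the lower genes 70.4% below.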

How the data were processed

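Total RNA of 8 bulk MSC samples was made into libraries with a stranded pico-input kit, per the labels. In the deposited bulk table are unnormalised read counts of 50600 Ensembl genes, per the file headers and its whole-number values, and the deposited stromal tables hold raw UMI counts per gene and cell with the authors' cluster numbers. The submitters' processing notes name Trim Galore, STAR 2.5.3a, Cell Ranger 6.0.0 and the mm10 build; which program counted reads, with which strand setting and annotation, is not stated there, and gene names and classes come from the deposited annotation and the GRCm38 reference. All per-sample columns of the bulk table were used.

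Groups came from the sample titles. Counts were tested with edgeR 4.0.16 in R 4.3.3 (quasi-likelihood test, robust; TMM scaling; genes kept by filterByExpr; Benjamini-Hochberg adjustment over 16317 tested genes, threshold 0.05). All adjusted p-values of genes come from this test. The calculation was tested on simulated data. Depth was 4301375 to 9811251 reads per library, so a gene of few CPM rests on few reads. No label says whether replicate numbers pair the samples. The main test did not pair them, and a replicate block is among the alternatives. Alternatives were DESeq2 1.42.0, limma-voom (limma 3.58.1), other scalings and filters, and leaving out libraries; those added after seeing the data are named as such in the closing section.

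Lists are described by counts and medians, with no test of a list. The genes, lists and rules were chosen with earlier results of these data known. Genes named were the 25 of smallest p in each direction among protein-coding genes, the 15 of largest fold with separate groups and at least 5 CPM in the higher group, 5 per direction of other classes, the called members of each described list (at most 8 per direction, with Cebpb added after its value was seen), and the 10 most abundant per direction. A gene function list was described with at least 3 called members and 1.5 times the background share, a family in the same way from 10 tested members on, and a list with no call from 20 tested members on. Genes named as not called, as neighbours or as markers stand outside this rule. Of 2508 WT and 3563 PyMT stromal cells, 2190 and 3191 passed a minimum of 500 genes and a limit of 10% on mitochondrial UMIs; doublets were not called here, and the libraries share 2 barcodes. Levels are CPM of UMIs summed per cluster. Symbols of 14213 of 16312 genes tested in bulk matched. Promoter sequences are from RefSeq, GRCm38.p6. Some results are not reported here.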

Additional observations from a re-analysis of the deposited data

Results flagged for a closer look

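In 20 of 496 groups of 4 libraries examined, 1 library lay far from the other 3, by a test of gaps that chance meets in about 1 group in 20. Of the 20, 6 were in Py230 replicate 1 and 5 in tumour-free replicate 4.

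In Py230 replicate 1, Inhbb stood at 35.6 CPM (12.6 to 16.1 in the other Py230 libraries), Mgp at 1503 (573 to 709), Serpina3n at 296 (38.2 to 68.8) and Mtss1 at 68.5 (56.7 to 58.5), all above their group. Arhgap28 at 15.6 CPM (28.8 to 31.5) and Sctr at 3.41 (6.46 to 6.50) were below it there. In tumour-free replicate 4, the activin antagonist Fst at 136 CPM (185 to 189), Gas6 at 866 (1312 to 1375) and the interferon-induced GTPase Irgm1 at 87.3 (207 to 226) were lower than in the other tumour-free libraries, on the side of the Py230 values. Gm8696 at 4.46 CPM (1.98 to 2.06) and Prph at 2.73 (0.82 to 1.12) were higher there.

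In the other libraries the values were Cebpd at 1111 CPM in tumour-free replicate 1 (868 to 898), Adamts15 at 58.0 (36.4 to 38.9) and Epas1 at 2092 (1883 to 1917) in tumour-free replicate 2, and Mmp11 at 23.7 (27.3 to 28.0) and Myoc at 3.25 (1.28 to 1.32) in tumour-free replicate 3. The summed arterial and capillary endothelial markers were at 79.0 CPM in tumour-free replicate 3 (61.5 to 63.9). Acvr2a was at 76.5 CPM in Py230 replicate 2 (65.5 to 66.0), Plxnd1 at 399 in Py230 replicate 3 (337 to 339) and Cdkn1a at 171 in Py230 replicate 4 (230 to 240). These are values only; why single libraries stood apart was not tested.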

How the results depend on the processing

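The main count of 324 higher and 447 lower genes became 480 and 613 with DESeq2, 310 and 437 with limma-voom, 301 and 457 with RLE scaling, and 311 and 426 among genes of at least 1 CPM in 4 libraries. A test against a 1.2-fold change left 139 and 189. With no filter 298 and 578 were called, 66.0% of them lower against 58.0% with the filter. Without the library of fewest genes in each group, and so with fewer samples, 189 and 303 were called; with the number of genes detected as a covariate, an alternative added after seeing the data, 458 and 565. Leaving out 1 library gave 152 to 304 higher and 249 to 409 lower genes. The higher count moved by over 1.5 times to 152 without tumour-free replicate 1, to 165 without tumour-free replicate 2 and to 181 without Py230 replicate 2, and the lower count without tumour-free replicate 2 (249) or Py230 replicate 2 (276). The labels share replicate numbers between groups. The deviations of same-numbered samples from their group means had r of −0.39, −0.13, −0.20 and 0.02. Such deviations cancel out within each group by construction, so these r cannot decide whether the samples were paired. With the replicate block 176 genes were higher and 237 lower, and 76 of the 227 genes chosen by the rule lost their call. Of the 227 genes chosen by the rule, 134 kept their call without any 1 library, and none changed direction in any alternative run. These genes were chosen as called in the same libraries, and 743 of the 771 called genes had separate groups. That none changed direction largely follows from this choice and adds nothing to their calls. Removing the most abundant marker turned the log2 ratio of the B cell sum to 0.62, without Ebf1, and of the plasma cell sum to 0.36, without Sdc1, each of which was also the list's only called marker. Of 213 LepR+ ratios of these genes 210 stayed inside their interval with all deposited cells, and 2 changed sign. Depth limits genes of few CPM most.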
